A study of Neotoma stephensi and Rattus norvegicus with 6 samples.

Results

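The contraction of smooth muscle is switched by a phosphate group on the regulatory light chain of myosin. Myosin light chain kinase, encoded by Mylk, adds the phosphate when calcium enters the cell and activates it, and myosin phosphatase removes it. The phosphatase is built from a catalytic subunit (Ppp1cb) and a targeting subunit that carries it to myosin (Ppp1r12a, Ppp1r12b or Ppp1r12c). It is held back by the inhibitor protein of Ppp1r14a and by the kinases Rock1 and Rock2, which are activated by the GTPase RhoA (Rhoa). Smtnl1 encodes smoothelin-like 1, a muscle protein that binds the targeting subunit of the phosphatase and is known for tuning contraction in vascular and uterine smooth muscle. These 10 genes were picked by symbol as the core of myosin phosphorylation control, and all 10 of them stood among the 15481 listed genes. The first pair, Smtnl1 and Mylk, was included because both were already known to be more abundant in woodrats in these same libraries, so their difference between species is given as a description. The other 8 genes were included for their place in the pathway, though earlier results of these data were known when the list was made.

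The libraries came from polyA RNA of a section of the fornix ventricularis, the nonglandular fundus of the stomach, of 3 Stephens' woodrats (Neotoma stephensi) and 3 Sprague Dawley lab rats (Rattus norvegicus), all female. The woodrats were wild-caught, ate juniper foliage and were dissected the day after a night in the laboratory, whereas the lab rats were bought from a breeder and lived on rat chow for months. The labels call every animal virgin, but the study's methods say so only for the lab rats. Species, diet, origin and foregut microbes differed together and cannot be told apart. Reads of both species were counted against mouse coding transcripts, so in these counts alone a difference in abundance cannot be told apart from a difference in how well the reads of a species align to the mouse gene. The study also mapped reads within each species, and those counts were not analysed here.

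Each library held between 5439642 and 7932637 counted reads, and 3 counts corresponded to between 0.355 and 0.586 CPM (counts scaled by library size), the floor of detection used here. The files held 809 genes without lab rat reads and 0 genes without woodrat reads, so they list genes more fully for woodrats. Among the 10 smooth muscle markers in the files (Acta2 and Actg2 were not), 9 were higher in every woodrat than in every lab rat, where 28.8% of all genes tested had this order. At a false discovery rate below 0.01, 4 of the 10 were higher in woodrats and 0 in lab rats, beside 10.3% and 9.71% of all genes tested. Their summed level was 38872 to 124350 CPM in woodrats and 11312 to 22468 CPM in lab rats. The 8 squamous epithelium markers summed to 14289 to 37133 CPM in woodrats and 12204 to 18720 CPM in lab rats. Most of this sum came from Krt13 and Krt4, and the markers did not share a direction. Their median log2 fold change (woodrat over lab rat) was -0.59. At the same threshold 1 of them, Krt4, was higher in woodrats and 0 were higher in lab rats. Leukocyte markers (4 of 6 listed were in the files) summed to 9.77 to 29.9 CPM in woodrats and 183 to 289 CPM in lab rats, and 4 fibroblast markers to between 459.55 and 675 CPM and between 913 and 1166 CPM. Endothelial markers (5 genes, 48.4 to 97.9 CPM against 91.5 to 103 CPM) and markers of enteric nerve, glia and interstitial cells of Cajal (7 genes, 38.7 to 82.4 CPM against 35.1 to 53.4 CPM) had overlapping ranges. Glandular stomach markers were low in both species, with 3 of 6 listed genes in the files and sums of at most 9.76 CPM. Their members went in opposite directions. Muc5ac had 3.32, 1.67 and 3.91 CPM in woodrats 1, 2 and 3 and 0 CPM in every lab rat, and it passed the same threshold. Atp4a was higher in every lab rat than in every woodrat and did not pass. How much of the results below these cell types account for was not tested, and in whole tissue more muscle cells and more transcript per cell cannot be told apart.

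Targeting subunits of myosin phosphatase and the kinases Rock1 and Rock2 that restrain it were more abundant in woodrats, whereas the transcripts of RhoA and of the phosphatase inhibitor overlapped between the species. Those last transcripts, Rhoa and Ppp1r14a, encode the shortest proteins of the set, and whether the difference moves with transcript length was not tested, since no lengths were at hand. Of the 8 genes not chosen for their difference, Ppp1r12a, Ppp1r12b, Rock1 and Rock2 were higher in woodrats at a false discovery rate (FDR) below 0.01 in edgeR's quasi-likelihood F-test over 12603 genes, 0 were lower, and Ppp1r12c, Ppp1cb, Ppp1r14a and Rhoa did not pass. Of all genes tested, 20.0% passed in either direction, 10.3% toward woodrats and 9.71% toward lab rats, against 50% of these 8 toward woodrats. Because the 8 were listed with earlier results of these data known, the comparisons with all genes are a description. The median log2 fold change of the 8 genes (woodrat over lab rat) was 1.79, beside 0.030 over all genes tested. Every woodrat was above every lab rat in 6 of the 8, where 28.8% of all genes had this order. With only 1 woodrat or lab rat left out, between 1 and 5 of the 8 passed. Rock1 alone passed without woodrat 2 and without lab rat 1, where 7.13% and 7.43% of all genes passed, and also when libraries were scaled by total counts only, where 14.4% did.

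**Figure D1:**
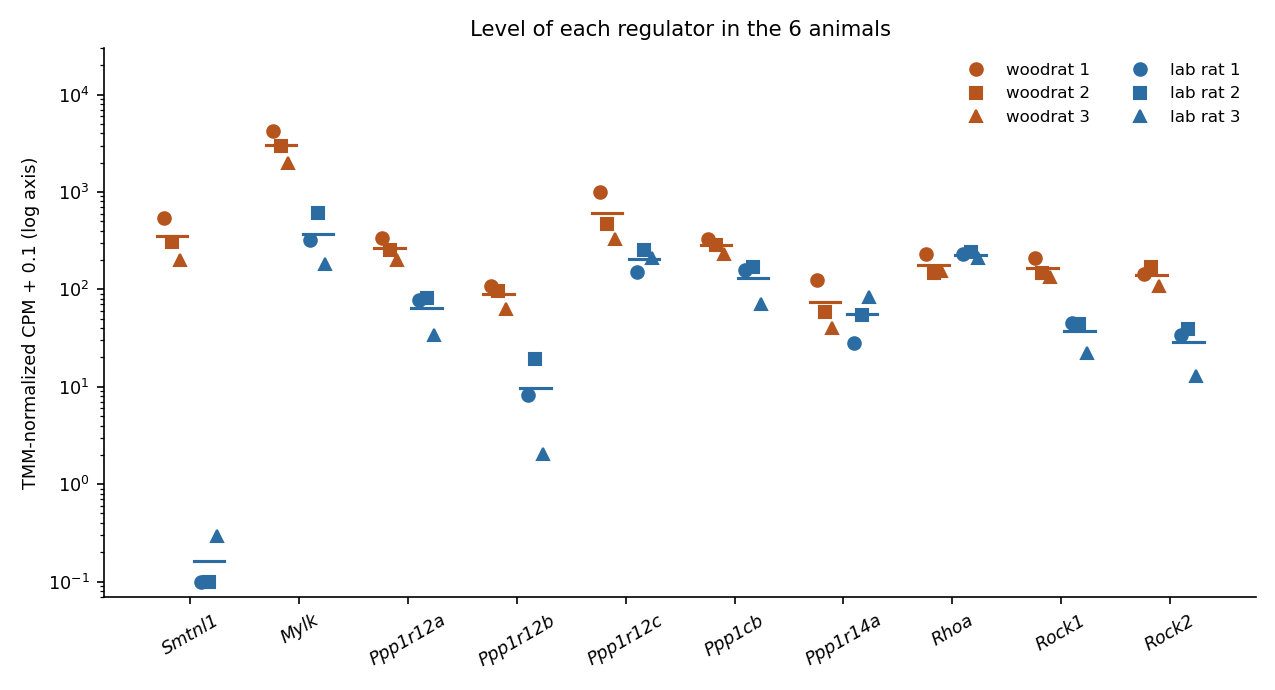
TMM-normalized CPM plus 0.1 (log axis) of each of the 10 genes in the 3 woodrats (orange) and the 3 lab rats (blue), with symbols for animals 1 to 3 and a bar at the species mean. The species do not overlap for 8 genes, and they overlap for Ppp1r14a and Rhoa.

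Smtnl1 (ENSMUSG00000027077.7) had 541, 309 and 202 CPM in woodrats 1, 2 and 3, and 0, 0 and 0.193 CPM in lab rats 1, 2 and 3. The lab rat values rest on a single read and lie under the floor of every lab rat library. From the summed reads, 6704 in woodrats and 1 in lab rats, the woodrat level was 6229 times the lab rat level, with a 95% interval from 1118 to 246070 (exact binomial method, counting error only). Set against the detection floor instead, the lowest woodrat was 349.9 times the highest floor of a lab rat library. Among the tested genes, 79 had at most 1 lab rat read over the 3 libraries, and Smtnl1 was the only one of these with a mean of at least 100 CPM in woodrats.

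Smtnl1 is also expressed in skeletal muscle, so striated markers are given beside it. The skeletal myosin heavy chains Myh1, Myh2 and Myh4 summed to 0.781, 0.278 and 0.711 CPM in woodrats 1, 2 and 3, and to 2.61, 6.62 and 4.82 CPM in the lab rats. Every woodrat was below every lab rat for this sum, while other genes of the list went the other way. Of the 10 skeletal markers in the files, 6 had enough reads to be tested, and the untested ones could not pass in either direction. At an FDR below 0.01, 2 were higher in woodrats, Ckm (227 ± 96.5 CPM in woodrats, 26.3 ± 10.1 CPM in lab rats, SD, n = 3) and Tnni2 (17.2 ± 5.71 and 2.00 ± 1.28 CPM), and 0 passed in the other direction. Of all genes tested, 20.0% passed in either direction. For 6 of the 10 markers, tested or not, every woodrat lay below every lab rat, where 27.4% of all genes tested had this order. Ckm encodes muscle creatine kinase and Tnni2 the inhibitory troponin of fast fibres. Ckm ran in the order of Smtnl1 within woodrats, with 330.5, 209.9 and 139.7 CPM in woodrats 1, 2 and 3, as did the summed smooth muscle markers. Tnni2 (23.6, 12.8 and 15.2 CPM) and Actn3 (125, 51.2 and 68.3 CPM) did not keep this order. The part of striated fibres in the Smtnl1 level was not tested. The whole list summed to 227 to 482 CPM in woodrats and 69.7 to 109 CPM in lab rats, most of it from Ckm and Actn3.

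Mylk (ENSMUSG00000022836.10) had 4193, 2932 and 1973 CPM in woodrats 1, 2 and 3 and 321, 609 and 181 CPM in lab rats 1, 2 and 3. The lowest woodrat was 3.24 times the highest lab rat. Its log2 fold change was 3.03, with a 95% interval from 1.81 to 4.26, and stayed between 2.71 and 3.60 with each animal left out. The Mylk locus also gives rise to telokin, a short protein that activates myosin phosphatase, and counts per gene do not separate its transcript from that of the kinase. The other kinases of this family were not measurable, because Mylk3 had 13 reads in woodrats and 0 in lab rats, and Mylk4 had 1 read in all. Mylk2 had no entry under that symbol in the counts.

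Of the 3 targeting subunits of myosin phosphatase, 2 were higher in woodrats and Ppp1r12c did not pass. Ppp1r12a (ENSMUSG00000019907.9), the main targeting subunit of smooth muscle, had 339.6, 252 and 200.3 CPM in woodrats 1, 2 and 3 and 77.3, 82.2 and 34.1 CPM in lab rats 1, 2 and 3. Every woodrat was at least 2.44 times above the highest lab rat, and the change on the log2 scale was 2.03 ± 0.38 (SE, FDR = 0.00456 in edgeR's test). Ppp1r12b (ENSMUSG00000073557.10), a close relative found in striated and smooth muscle, had 108, 95.4 and 63.4 CPM in woodrats against 8.19, 19.0 and 1.93 CPM in lab rats. The lab rats spread 9.88-fold for this gene, against 1.70-fold in woodrats, and the change on the log2 scale was 3.18 ± 0.65 (SE, FDR = 0.00621 in edgeR's test). Ppp1r12c (ENSMUSG00000019254.15), the third targeting subunit, had 1008, 473 and 329 CPM in woodrats against 153, 256 and 209 CPM in lab rats. Its lowest woodrat was only 1.29 times the highest lab rat, and its log2 fold change of 1.55 did not pass the threshold (95% interval 0.55 to 2.56, FDR = 0.0234, edgeR).

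The calls for both passing subunits depended on single animals. Ppp1r12a had FDR values of 0.0164, 0.0144 and 0.0128 without woodrat 2, lab rat 1 and lab rat 2, and Ppp1r12b had 0.0123, 0.0203 and 0.0248 without woodrat 1, woodrat 2 and lab rat 1, each from edgeR's test. Their log2 fold changes stayed between 1.73 and 2.24 and between 2.72 and 4.09 when each of the 6 animals was left out. Ppp1r12c passed without woodrat 3 (FDR = 0.00763, edgeR) and under DESeq2 (FDR = 0.00314).

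The catalytic subunit gene Ppp1cb (ENSMUSG00000014956.14) had 332, 287 and 232 CPM in woodrats 1, 2 and 3 and 157, 168 and 70.3 CPM in lab rats 1, 2 and 3. All woodrats lay above all lab rats, by a factor of 1.38 between the nearest animals, and the log2 fold change of 1.10 did not pass (95% interval 0.29 to 1.92, FDR = 0.0380, edgeR). The other catalytic subunits of protein phosphatase 1 differed less, with log2 fold changes of -0.40 for Ppp1ca (FDR = 0.218) and -0.03 for Ppp1cc (FDR = 0.922). These subunits are close paralogs, and reads were assigned to the best-scoring gene.

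The inhibitor gene Ppp1r14a (ENSMUSG00000037166.4), whose protein blocks myosin phosphatase once phosphorylated by protein kinase C, had 124, 58.7 and 39.9 CPM in woodrats 1, 2 and 3. In lab rats 1, 2 and 3 it had 28.3, 55.1 and 84.4 CPM. The species overlapped, and the log2 fold change was 0.41 (95% interval -0.71 to 1.54, FDR = 0.533, edgeR). Without woodrat 1 it was -0.18. An increase as large as that of Ppp1r12a lies outside this interval.

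Rhoa (ENSMUSG00000007815.12) had 230.5, 148 and 153 CPM in woodrats 1, 2 and 3 and 229, 242 and 210.1 CPM in lab rats 1, 2 and 3. Woodrat 1 lay among the lab rats and the other two lay below them, with a log2 fold change of -0.36 (95% interval -0.96 to 0.24, FDR = 0.300, edgeR). In contrast, the kinases that RhoA activates were both higher in woodrats. Rock1 (ENSMUSG00000024290.8) had 210.2, 148 and 133 CPM in woodrats against 45.4, 44.0 and 22.2 CPM in lab rats, which differed by 2.14 ± 0.34 on the log2 scale (SE, FDR = 0.00249 in edgeR's test). The lowest woodrat was 2.93 times the highest lab rat, and Rock1 passed in all 6 fits that left out 1 animal, with FDR values from 0.00220 to 0.00985. Rock2 (ENSMUSG00000020580.9) had 144, 171 and 109 CPM in woodrats against 34.3, 38.9 and 12.9 CPM in lab rats, which differed by 2.30 ± 0.41 on the log2 scale (SE, FDR = 0.00379 in edgeR's test). Its FDR was 0.0159 without woodrat 2 and 0.0128 without lab rat 1.

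**Figure D2:**
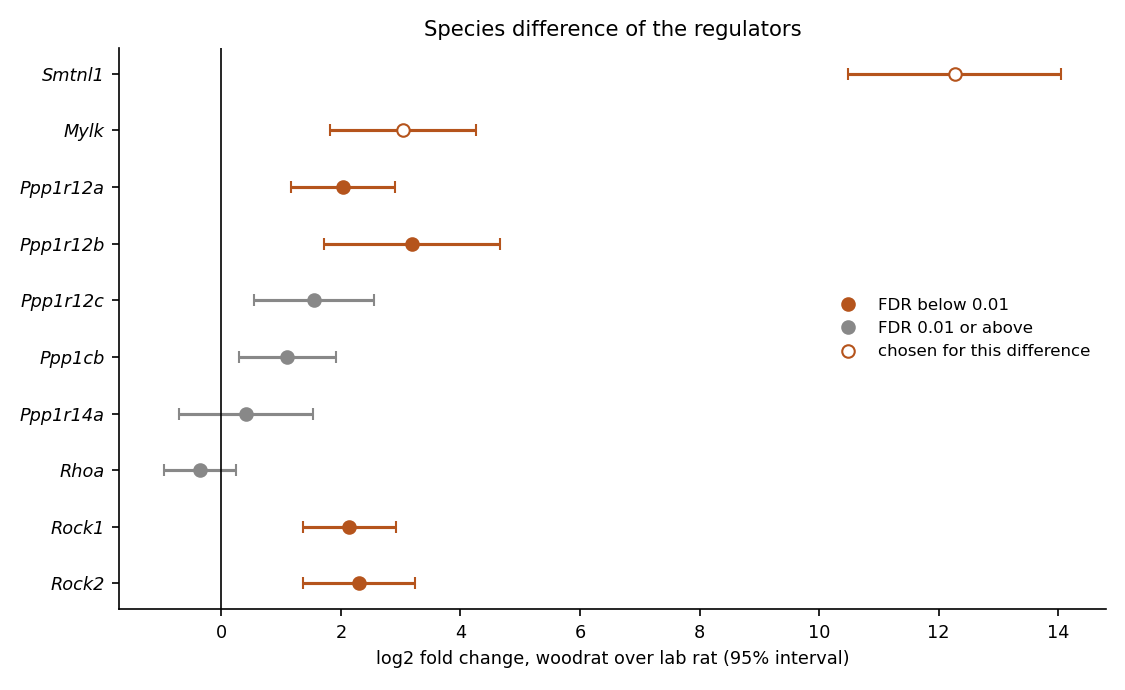
Log2 fold change of woodrats over lab rats with its 95% interval for the 10 genes, coloured where the FDR was below 0.01 and with open points for the genes chosen for this difference. Ppp1r12a, Ppp1r12b, Rock1 and Rock2 passed, while the intervals of Ppp1r14a (-0.71 to 1.54) and Rhoa (-0.96 to 0.24) include 0.

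Because the members of the pathway were measured in the same libraries, their ratios within an animal are free of library scaling. These pairs were chosen after the levels were seen and are given without a test. On the log2 scale of CPM, Rock1 over Ppp1r12a was -0.69, -0.77 and -0.59 in woodrats 1, 2 and 3, beside -0.77, -0.90 and -0.62 in lab rats 1, 2 and 3. This ratio of kinase to targeting subunit overlapped between the species, with means of -0.68 ± 0.09 and -0.76 ± 0.14 (SD, n = 3). Rock2 over Rock1 overlapped as well, at -0.21 ± 0.38 in woodrats and -0.45 ± 0.30 in lab rats.

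Other ratios separated the species. Mylk over Ppp1r12a was 3.49 ± 0.17 in woodrats and 2.45 ± 0.42 in lab rats (SD, n = 3), a difference of 1.04. Because Mylk was chosen for its higher level in woodrats, ratios with Mylk are not independent of that choice. Against the second targeting subunit this order did not hold, since Mylk over Ppp1r12b was 5.06 ± 0.19 in woodrats and 5.61 ± 0.82 in lab rats with overlapping animals. Ppp1r12a over its catalytic partner Ppp1cb was -0.12 ± 0.13 in woodrats and -1.03 ± 0.01 in lab rats. The 3 lab rats were nearly identical for this ratio, at -1.02, -1.03 and -1.04, although lab rat 3 had well under the level of the other lab rats for each gene alone. Rock1 over Rhoa was -0.11 ± 0.11 in woodrats and -2.68 ± 0.49 in lab rats. Ppp1r14a over Mylk was -5.45 ± 0.32 in woodrats and -2.69 ± 1.38 in lab rats, with every woodrat below every lab rat. Against the targeting subunit, the ratio of Ppp1r14a to Ppp1r12a overlapped, at -1.45, -2.10 and -2.33 in woodrats 1, 2 and 3, beside -1.45, -0.58 and 1.31 in lab rats 1, 2 and 3.

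Animals of one species differed from each other in a shared order for most of these genes. Woodrat 1 was the highest woodrat for 9 of the 10 genes, the exception being Rock2, and woodrat 3 was the lowest for 9, the exception being Rhoa. Among the lab rats, lab rat 3 was the lowest animal for 7 genes (Mylk, Ppp1r12a, Ppp1r12b, Ppp1cb, Rock1, Rock2 and Rhoa). Ppp1r14a went the other way in this species and was highest in lab rat 3 and lowest in lab rat 1. The summed smooth muscle markers fell in the same order as the woodrats, with 124350, 60836 and 38872 CPM in woodrats 1, 2 and 3, and they were 11312, 18667 and 22468 CPM in lab rats 1, 2 and 3. Squamous epithelium markers had the opposite order in woodrats, with 14289, 30006 and 37133 CPM. The part of these cell types in the spread was not tested. With woodrat 1 and lab rat 3 both left out, an alternative chosen after seeing the data, 3 of the 8 genes passed. These were Ppp1r12a, Rock1 and Rock2, with log2 fold changes of 1.48, 1.63 and 1.92, while Ppp1r12b reached 2.54 at an FDR of 0.0101 (edgeR).

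**Figure D3:**
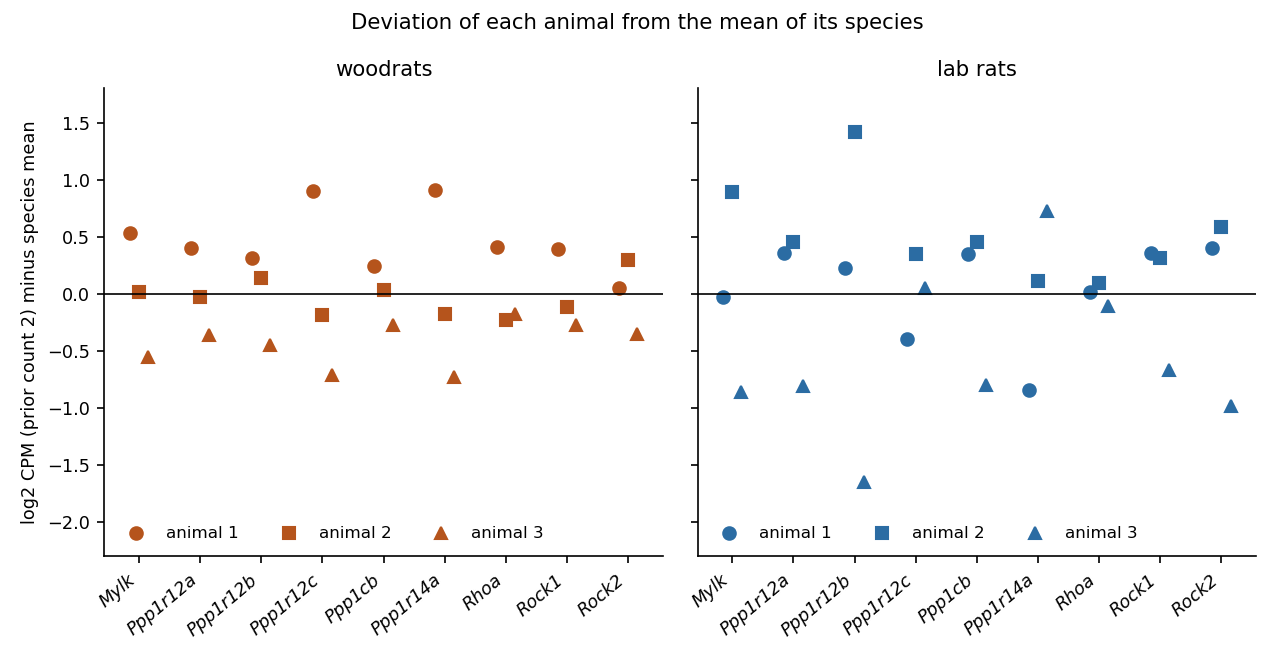
Log2 CPM (prior count 2) of each animal minus the mean of its species, for the 9 genes with lab rat reads in every animal, woodrats at left and lab rats at right. Woodrat 1 (circles) lies at the top for 8 of these 9 genes, and lab rat 3 (triangles) lies at the bottom for 7 but at the top for Ppp1r14a.

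To set the regulators against the amount of muscle transcript, the mean log2 CPM of the 10 smooth muscle markers was subtracted from each gene in each animal. This mean was 11.81, 10.94 and 10.40 in woodrats 1, 2 and 3, beside 8.25, 9.003 and 8.56 in lab rats 1, 2 and 3, a difference of 2.45 between the species. The same mean was subtracted from every gene of an animal, so a species difference on this scale restates the mean log2 difference per library less 2.45. On this scale 0 of the 8 genes were higher in every woodrat, 4 were lower in every woodrat and 4 overlapped. Of all genes tested, 78.4% were lower in every woodrat per muscle marker and 1.91% were higher, so the count of lower genes is not a result about these regulators.

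The 4 passing regulators, with log2 fold changes per library from 2.03 to 3.18, overlapped between species once set per muscle marker. Ppp1r12a was at -3.04 ± 0.33 in woodrats and -2.69 ± 0.75 in lab rats (SD, n = 3, exact permutation p = 0.5, two-sided). Rock1 was at -3.72 ± 0.37 and -3.46 ± 0.68 (exact permutation p = 0.6), and Rock2 at -3.93 ± 0.61 and -3.91 ± 0.87 (exact permutation p = 1). Ppp1r12b was at -4.61 ± 0.38 in woodrats and -5.85 ± 1.53 in lab rats (exact permutation p = 0.2), with lab rat 3 at -7.60. Mylk, which was chosen for its difference per library, also overlapped on this scale, with 0.226, 0.576 and 0.547 in woodrats 1, 2 and 3, beside 0.078, 0.247 and -1.06 in lab rats 1, 2 and 3.

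The genes with small differences per library were lower per muscle marker in every woodrat, which follows largely from the difference of 2.45 in the marker mean. Rhoa was at -3.61 ± 0.42 in woodrats and -0.78 ± 0.34 in lab rats, and Ppp1r14a at -5.00 ± 0.13 and -2.93 ± 0.68 (SD, n = 3). Ppp1cb was at -2.92 ± 0.46 and -1.66 ± 0.74, and Ppp1r12c at -1.97 ± 0.13 and -0.95 ± 0.08. Each of these 4 had an exact permutation p of 0.1, the smallest that 3 animals against 3 allow, so none of the 8 tests on this scale could reach 0.05.

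**Figure D4:**
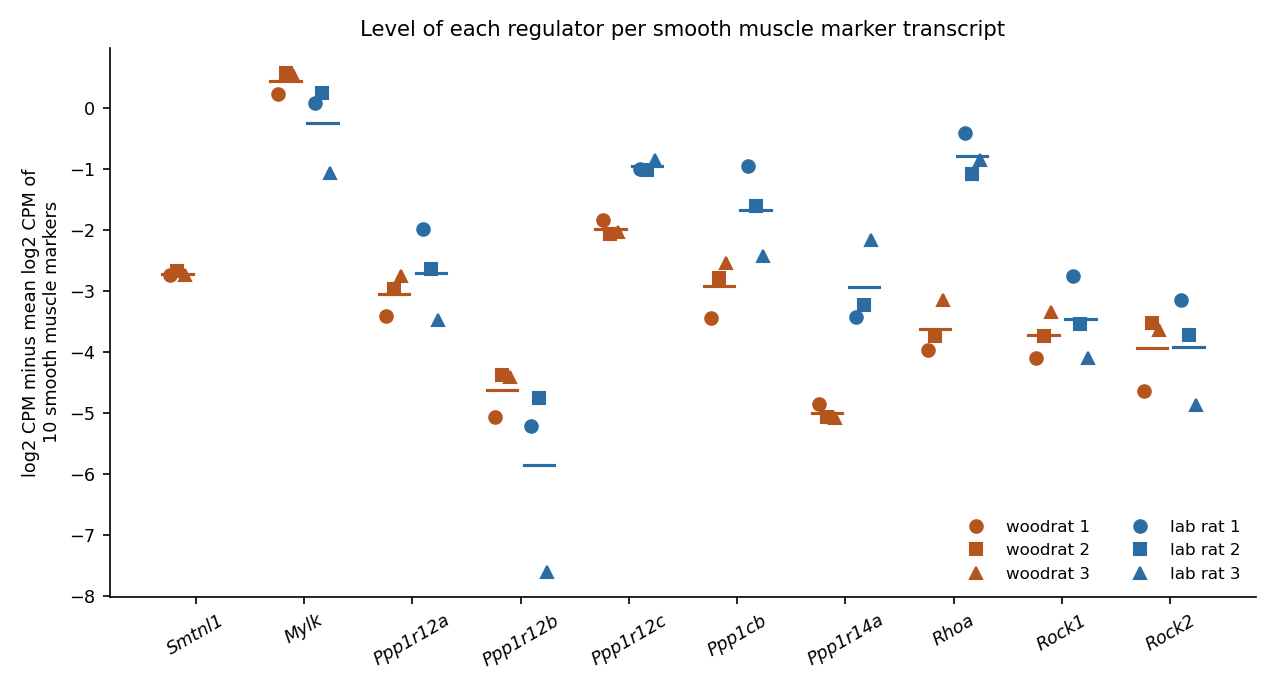
Log2 CPM of each gene minus the mean log2 CPM of 10 smooth muscle markers in each animal, with a bar at the species mean. Lab rat values of Smtnl1 are left out because they rest on 1 read, and the woodrats lie below the lab rats for Ppp1r12c, Ppp1cb, Ppp1r14a and Rhoa.

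Within woodrats, Smtnl1 kept a nearly fixed ratio to the muscle markers. Its level per marker was -2.73, -2.67 and -2.74 in woodrats 1, 2 and 3, while its CPM differed 2.68-fold between them. The SD of 0.037 was reached or undercut by 0.167% of the 12593 tested genes that are not markers, whose median SD in woodrats was 0.767. Ppp1r12c (SD 0.1251) and Ppp1r14a (SD 0.129) varied little on this scale as well, with 1.49% and 1.60% of genes at or under their SD. In lab rats the SD of Ppp1r12c was 0.0843 (0.453% of genes at or under it), but that of Ppp1r14a was 0.678 (69.2%) and that of Mylk 0.712 (72.9%). In woodrats the other regulators ranged from an SD of 0.194 for Mylk to 0.615 for Rock2. In lab rats they ranged from 0.344 for Rhoa to 1.53 for Ppp1r12b, beside a median SD of 0.547 over the same genes. This measure was looked at after the levels were known and has no test.

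The genes with the profile closest to Mylk over the 6 animals were found by the root mean square difference of centred log2 CPM. They were Mrvi1 (0.126), Pde4d (0.162), Gnat2 (0.171), Palld (0.173) and Cald1 (0.182). Mrvi1 encodes a substrate of cyclic GMP-dependent kinase that restrains calcium release, Palld an actin-bundling protein and Cald1 caldesmon, which holds back actomyosin. Gnat2, with a mean of 0.345 CPM in lab rats, lay near the floor there. For Smtnl1 the closest genes were Ube2d4 (1.12), Gm5849 (1.24), Mpp1 (1.28), Dnaic1 (1.37) and Serpina9 (1.52), which had between 0 and 0.611 CPM in lab rats on average. All 5 were thus at or near 0 in lab rats, as Smtnl1 was.

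The wider pathway was read from 71 other genes grouped by role, of which 67 were in the files and 62 could be tested. At an FDR below 0.01, 16 were higher in woodrats and 1 was lower, or 27.4% of those tested beside 20.0% of all genes, with a median log2 fold change of 1.00. Toward woodrats alone, 10.3% of all genes passed. The count was 5 without lab rat 1 (8.06%, beside 7.43% of all genes) and 6 without woodrat 2 (9.68%, beside 7.13%), close to the share over all genes in either direction. All 5 and all 6 were higher in woodrats, a direction in which 393 and 439 of the 12603 genes passed in the same fits. In either direction, 9 pathway genes passed without lab rat 2, 11 without lab rat 3 and 22 without woodrat 3, beside 8.33%, 10.4% and 20.8% of all genes. The lists were written with earlier results of these data known and are described by their counts only.

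On the calcium side, 1 of 9 tested genes passed. Cacna1c, the pore of the L-type calcium channel that lets calcium into smooth muscle, had 58.0, 55.2 and 24.99 CPM in woodrats 1, 2 and 3 and 7.07, 7.94 and 5.39 CPM in the lab rats (log2 fold change 2.75, FDR = 0.00151, edgeR).

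Among relatives of the phosphatase subunits, 1 of 6 tested genes passed. Ppp1r14c, a second phosphorylation-dependent inhibitor of the same family as Ppp1r14a, had 5.86, 5.69 and 14.1 CPM in woodrats 1, 2 and 3 and 0.993, 0.827 and 0.578 CPM in lab rats (log2 fold change 3.37, FDR = 0.00242, edgeR). Unlike the muscle regulators it was highest in woodrat 3, and lab rat values were 8, 5 and 3 reads. Ppp1r14b did not pass, at 40.3 CPM in woodrats against 41.3 CPM in lab rats on average, and Ppp1r14d had 2 reads in all and was not tested.

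Of the 17 genes that control RhoA or are related to it, all tested, 2 were higher in woodrats and 1 was lower. Arhgap35 and Arhgap42 encode GTPase-activating proteins, as does Arhgap1, which did not pass (log2 fold change 0.90, FDR = 0.0578, edgeR). Arhgap35 had 162, 109 and 111 CPM in woodrats 1, 2 and 3 and 26.3, 33.4 and 6.16 CPM in lab rats (log2 fold change 2.53, FDR = 0.00715, edgeR), and Arhgap42, a form enriched in smooth muscle, had 26.95, 40.3 and 18.6 CPM against 7.20, 7.77 and 3.66 CPM (2.19, FDR = 0.00441). Arhgdib, a GDP-dissociation inhibitor of blood cells, was lower in woodrats, at 7.81, 7.77 and 10.7 CPM against 30.5, 23.7 and 33.1 CPM (-1.73, FDR = 0.00284), beside leukocyte markers that were lower too. The exchange factors that load RhoA with GTP did not pass, with log2 fold changes from -0.84 for Arhgef1 to 1.27 for Arhgef25.

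Among other kinases that act on the phosphatase, its inhibitors or the light chain, 4 of 13 passed, all higher in woodrats. Prkcb, encoding a classical protein kinase C, stood at 389, 314 and 182 CPM in woodrats 1, 2 and 3 and 4.34, 4.47 and 4.24 CPM in lab rats 1, 2 and 3. The 3 lab rats were almost equal, and the log2 fold change was 6.08 ± 0.38 (SE, FDR = 0.000105 in edgeR's test). The related Prkca (1.57, FDR = 0.0278) and Prkce (0.49, FDR = 0.510) did not pass, and Prkcd had a log2 fold change of -1.01 (FDR = 0.0150). Cdc42bpa, a kinase related to Rock1 and Rock2, had 247, 181 and 114 CPM in woodrats against 18.7, 26.6 and 13.3 CPM in lab rats (3.21, FDR = 0.000906). Pak1 (1.58, FDR = 0.00382) and Pkn2 (1.35, FDR = 0.00590) were higher by smaller amounts.

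Genes of the opposing branch, in which cyclic nucleotides (cyclic GMP or cyclic AMP) relax the muscle, were higher in every woodrat than in every lab rat in 8 of 8 cases. Of the 8, 5 passed, where 28.8% of all genes had this order and 20.0% passed. One of the 8, Kcnmb1, is also among the 10 smooth muscle markers. Prkg1, the cyclic GMP-dependent kinase that activates myosin phosphatase, had 22.7, 23.5 and 14.9 CPM in woodrats 1, 2 and 3 and 1.12, 4.14 and 1.54 CPM in lab rats (log2 fold change 3.17, FDR = 0.00244, edgeR). Its substrate gene Mrvi1 had 312, 271 and 146 CPM against 26.9, 44.2 and 14.6 CPM (3.08, FDR = 0.00198). Pde5a, which breaks down cyclic GMP, had a log2 fold change of 2.58 (FDR = 0.00639), and Kcnma1, the pore of the large-conductance potassium channel, one of 2.37 (FDR = 0.00251).

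Of the 7 tested myosin and thin filament genes, 3 passed and 4 did not. Cald1 had 3397, 2091 and 1375 CPM in woodrats 1, 2 and 3 and 205, 326 and 128 CPM in lab rats (log2 fold change 3.38, FDR = 0.00197, edgeR). Myh9 (2.59, FDR = 0.00312) and Myh10 (1.74, FDR = 0.00452), the nonmuscle myosin heavy chains, passed too. Myl9, the light chain that the kinase phosphorylates, had 11487, 4238 and 5012 CPM in woodrats against 1361, 2239 and 2791 CPM in lab rats, which differed by 1.70 on the log2 scale (FDR = 0.0317). Myh11, which is among the 7 and is also a smooth muscle marker, had a log2 fold change of 2.43 and did not pass (FDR = 0.0102). For reference, the muscle marker Des, outside this list, had a log2 fold change of 2.70 (FDR = 0.0106). Myl12a, Myl12b and Myh14 had no entry under those symbols in the counts.

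The relatives of Smtnl1 did not share its pattern. Smtn, encoding smoothelin, had 2326, 902 and 677 CPM in woodrats 1, 2 and 3 and 499.6, 812 and 968 CPM in lab rats, with overlap between the species (log2 fold change 0.78, 95% interval -0.37 to 1.92, FDR = 0.247, edgeR). Smtnl2 had 2.54, 2.22 and 24.0 CPM in woodrats against 3.10, 2.65 and 2.31 CPM in lab rats, and its log2 fold change of 1.84 came with an FDR of 0.1248 and rested on woodrat 3. The receptors for progesterone and oestrogen, hormones under which Smtnl1 is known to change in the uterus, were at low levels in both species. Pgr had 2.15, 0.833 and 0.474 CPM in woodrats 1, 2 and 3 and 0.869, 0.331 and 0.385 CPM in the lab rats, and Esr1 had 2 reads in woodrats and 4 in lab rats, so neither was tested.

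**Figure D5:**
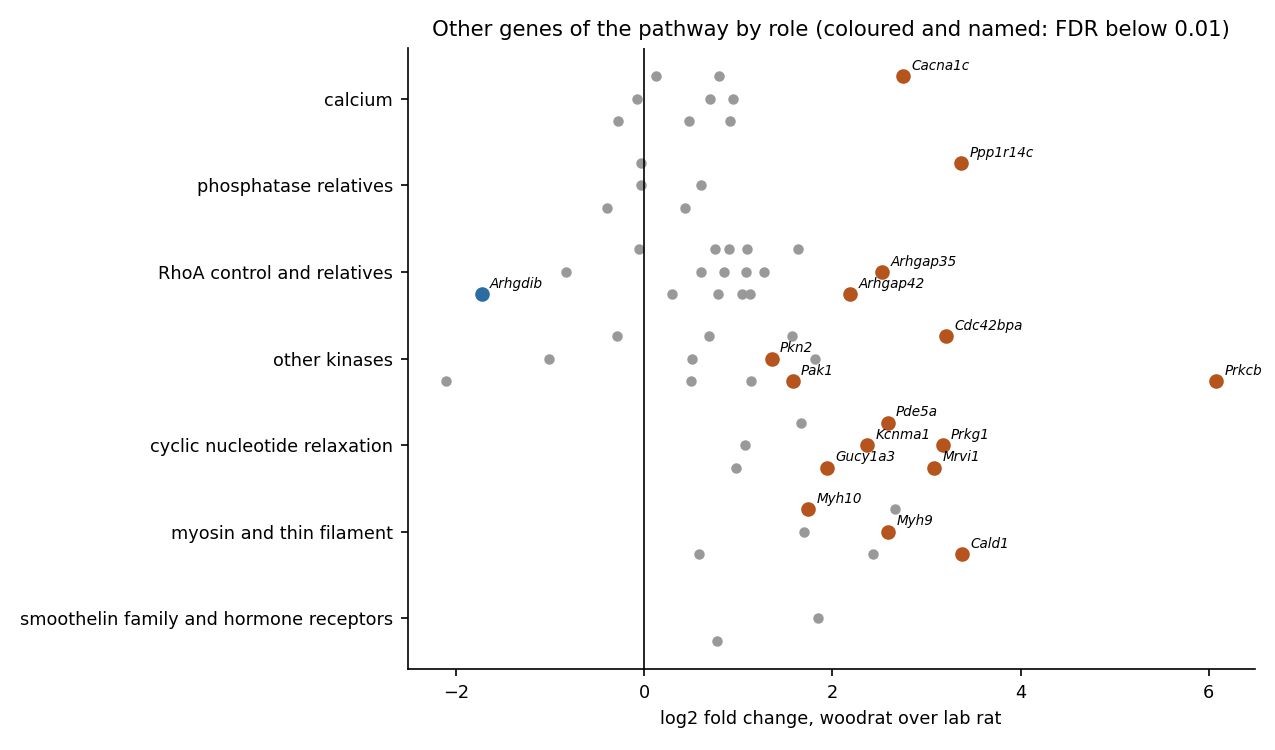
Log2 fold change of woodrats over lab rats for the 62 tested pathway genes outside the core, one row per role, with genes at an FDR below 0.01 coloured and named. Of these 17 genes 16 lie to the right (higher in woodrats), with Prkcb farthest at 6.08, and Arhgdib lies to the left at -1.73.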

How the data were processed

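Per the study's methods, the authors cleaned stranded mRNA reads with Trimmomatic, joined overlapping mates with FLASH and matched both species by cross_match against coding transcripts of the mouse (GENCODE M7), leaving out gene identifiers with many shared alignments. The authors deposited raw counts of uniquely assigned reads per gene, without normalization, for 3 woodrats and 3 lab rats grouped by their labels. The submitters' processing notes also list the build mm9. No transcript lengths were available, so levels of different genes are not ranked, and whether the species difference moves with transcript length was not tested.

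A minimum of 1 CPM in 3 or more animals left 12603 genes, and edgeR 4.0.16 in R 4.3.3 gave TMM factors and the quasi-likelihood F-test (the method before edgeR 4, prior count 0.125, Benjamini-Hochberg over all genes, FDR below 0.01). Intervals of fold changes use the moderated degrees of freedom. The standard error is the log2 fold change divided by the square root of F. CPM are TMM-normalized. The code was tested on simulated counts. Nothing in the labels says more of how animals of a species relate, so p-values measure the spread between these animals, and no pair of animals agreed within sampling noise (chi-square per degree of freedom 10.4 to 126). Animals with the same replicate number did not deviate together (correlations from -0.29 to -0.09 over 3 pairs), so the numbers were not treated as pairs.

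The 10 genes and all lists were chosen with earlier results of these data known. Named pathway genes are those at an FDR below 0.01, at most the 4 largest per list, or the one with the lowest FDR where none passed. The muscle markers Myh11, Des and Myl9 and the 5 genes closest in profile to Smtnl1 and to Mylk are named as well. Genes named beside these (paralogs, exchange factors, other protein kinase C genes, Smtn and genes not tested) were added after their values were seen. A listed gene that enters the counts is not reported here by name. Alternatives were other filters, scalings, thresholds and tests (DESeq2 1.42.0), the replicate block, and each animal left out.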

Additional observations from a re-analysis of the deposited data

How the results depend on the processing

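With each animal left out in turn, the number of the 8 regulators that passed ranged from 1 to 5, of all genes from 898 to 2626 and of pathway genes from 5 to 22. Scaling by total counts left 1 regulator. DESeq2 called 3916 genes and 29 pathway genes, an FDR below 0.05 called 5026 and 35, and the replicate block called 716 and 9, with 4 regulators under the block as without it. Mylk had an FDR of 0.0108 under the replicate block, 0.0134 without woodrat 2, 0.0175 without lab rat 1 and 0.0121 without lab rat 3. With woodrat 1 and lab rat 3 both left out, 9 pathway genes passed. Of 150 fold changes of the 10 genes under alternatives, 1 reversed, that of Ppp1r14a without woodrat 1 (-0.18, with the other fits that left out 1 animal reaching up to 0.83), 17 lost the threshold and 2 gained it. The cause of these shifts was not tested, and the fits that left animals out also held fewer animals. Per muscle marker, the differences between species with each animal left out were 9.80 to 11.72 for Smtnl1, 0.29 to 0.94 for Mylk, -0.73 to 0.02 for Ppp1r12a, 0.37 to 1.79 for Ppp1r12b, -1.09 to -0.97 for Ppp1r12c, -2.31 to -1.68 for Ppp1r14a, -1.64 to -0.90 for Ppp1cb, -0.58 to 0.09 for Rock1, -0.50 to 0.36 for Rock2 and -3.07 to -2.65 for Rhoa. A prior count of 2 gave 7.38 for Smtnl1, whose lab rat values rest on 1 read, and the summed level of the markers gave -0.56 for Ppp1r12c, -2.37 for Rhoa and -0.79 for Ppp1cb, and turned the sign of Ppp1r12a (0.12), Rock1 (0.20) and Rock2 (0.44), whose species overlapped. Depth limits Smtnl1 in lab rats and Mylk3, Mylk4, Ppp1r14d, Pgr and Esr1 in both species.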

Other observations

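The smooth muscle markers did not vary alike among the lab rats. Tpm2, encoding a tropomyosin, had 2069, 3056 and 5800 CPM in lab rats 1, 2 and 3, and Tagln, encoding transgelin, 3339, 5543 and 6423 CPM, so both were highest in lab rat 3, as were Des (1449, 2485 and 3438 CPM) and Ppp1r14a. Mylk, Cald1, Pde5a and Ppp1r12b were lowest in lab rat 3, with Pde5a at 26.9, 42.3 and 8.09 CPM. In woodrats, Tpm2 (13559, 6330 and 4405 CPM in woodrats 1, 2 and 3) and Mylk kept the same order. These genes were chosen after their values were seen, and the cause was not tested.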
